A study of Homo sapiens with 24 samples.

Results

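In LOUCY cells given JQ1, many genes of T-cell receptor signalling, progenitor transcription factors and nucleolar growth genes fell, while many histone genes, the cell-cycle inhibitor CDKN1A and the elongation inhibitor HEXIM1 rose. LOUCY is a human T-cell acute lymphoblastic leukaemia line used as a model of the early T-cell precursor form. The comparison took 8 of the study's 24 RNA-seq libraries: 4 of LOUCY kept for 24 h in 250 nM JQ1, against 4 of LOUCY kept for 24 h in 0.05% DMSO, the vehicle. Each group held 2 libraries from each of 2 experiments, and experiment entered the fit as a covariate. The other 16 libraries were LOUCY given 500 nM I-BET151 for 24 h (n = 4), untreated LOUCY (n = 6) and untreated JURKAT, a more mature T-cell leukaemia line (n = 6). The labels do not say whether replicates were separate cultures, so p-values measure the spread between these libraries, which may be technical. Each group is 1 cell line, with no second early precursor line beside it.

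BET proteins, among them BRD2, BRD3 and the testis form BRDT, bind acetylated lysines on histones through bromodomains. They help bring the kinase complex P-TEFb to promoters and enhancers, where it releases paused RNA polymerase II into elongation. JQ1 fills the acetyl-lysine pocket of the bromodomains and displaces these proteins from chromatin. In haematopoietic tumours it is best known for lowering MYC-family genes and lineage genes that depend on large enhancers, and for raising HEXIM1, which holds P-TEFb inactive.

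Levels are RPKM (reads scaled to gene length and library size), as the authors deposited them, and changes are differences of log2(RPKM + 1) between JQ1 and DMSO libraries with their standard error (SE). This scale understates the change of genes near or below 1 RPKM. A gene was tested if it reached 1 RPKM in at least 4 of the 8 libraries, and it rose or fell where limma gave a Benjamini-Hochberg adjusted p under 0.05 over all tested genes. Libraries held 4381134 to 5281597 reads in listed genes in JQ1 and 4899600 to 7074198 in DMSO. Markers of the line were chosen with earlier results of these data known, so they are a weak check of the line's label. Over the 8 libraries HHEX was at 58.3 to 138.0 RPKM and HOXA10 at 48.5 to 66.6, against 0.0 to 0.58 and 1.42 to 2.03 in JURKAT. EZH2, which JURKAT carried at 56.6 to 81.8 RPKM, stayed at 0.0641 to 0.638, and CD1B, CHI3L2 and PSAT1, all above 100 RPKM in JURKAT, stayed under 1 RPKM. DMSO experiment 2 replicate 1 stood apart. Its deviation from the mean of the 4 DMSO libraries fell by 0.298 log2 units per 10 points of gene GC content. Slopes were taken against each library's own group mean, so slopes within a group offset each other. In the other 7 libraries they lay between -0.08 and 0.137. RPKM are relative amounts, and in these bulk samples fewer cells of a type and less RNA per cell cannot be told apart.

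Promoter sequences of 6 genes on which the results turn are shown here: HEXIM1 and 3 histone genes, which rose, and MYCN and the nucleotide kinase gene NME1, which fell. Each window runs from 250 bases before to 50 bases after the start annotated by RefSeq on GRCh38.p14, 5′ to 3′ on the gene's strand. The windows are chr17:45148225-45148524 (plus strand) for HEXIM1, chr2:15940300-15940599 (plus) for MYCN, chr1:149886633-149886932 (minus) for HIST2H2BE, chr6:26157871-26158170 (plus) for HIST1H2BD, chr6:26056421-26056720 (minus) for HIST1H1C and chr17:51153309-51153608 (plus) for NME1. Capitals mark matches on either strand to 5 motifs: the octamer DNA motif ATTTGCAT, the TATA box TATAAA, the CCAAT box CCAAT, the E-box CACGTG and the GC box GGGCGG. No matches overlapped in these windows.
HEXIM1: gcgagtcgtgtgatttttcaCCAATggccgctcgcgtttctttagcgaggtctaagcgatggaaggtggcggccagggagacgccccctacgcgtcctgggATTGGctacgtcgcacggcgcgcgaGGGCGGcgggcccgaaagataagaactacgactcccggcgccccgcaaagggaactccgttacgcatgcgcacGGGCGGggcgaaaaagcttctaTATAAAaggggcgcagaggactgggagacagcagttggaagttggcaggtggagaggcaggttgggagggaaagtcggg
MYCN: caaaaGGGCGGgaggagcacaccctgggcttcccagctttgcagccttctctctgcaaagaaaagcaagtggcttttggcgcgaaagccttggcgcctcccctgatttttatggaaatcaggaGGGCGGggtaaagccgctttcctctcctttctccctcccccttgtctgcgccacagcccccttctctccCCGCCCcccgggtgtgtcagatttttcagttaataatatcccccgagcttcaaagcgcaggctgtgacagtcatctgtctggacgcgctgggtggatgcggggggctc
HIST2H2BE: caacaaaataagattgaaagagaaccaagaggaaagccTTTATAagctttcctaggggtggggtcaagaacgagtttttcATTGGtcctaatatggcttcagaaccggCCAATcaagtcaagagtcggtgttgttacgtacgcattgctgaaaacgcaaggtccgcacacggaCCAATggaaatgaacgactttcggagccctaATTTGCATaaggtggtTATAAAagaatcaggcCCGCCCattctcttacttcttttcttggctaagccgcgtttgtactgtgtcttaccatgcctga
HIST1H2BD: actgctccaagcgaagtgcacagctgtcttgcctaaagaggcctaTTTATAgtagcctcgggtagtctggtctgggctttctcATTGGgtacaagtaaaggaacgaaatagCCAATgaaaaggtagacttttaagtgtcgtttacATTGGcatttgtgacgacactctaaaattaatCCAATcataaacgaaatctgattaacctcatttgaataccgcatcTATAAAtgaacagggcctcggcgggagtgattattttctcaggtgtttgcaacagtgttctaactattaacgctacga
HIST1H1C: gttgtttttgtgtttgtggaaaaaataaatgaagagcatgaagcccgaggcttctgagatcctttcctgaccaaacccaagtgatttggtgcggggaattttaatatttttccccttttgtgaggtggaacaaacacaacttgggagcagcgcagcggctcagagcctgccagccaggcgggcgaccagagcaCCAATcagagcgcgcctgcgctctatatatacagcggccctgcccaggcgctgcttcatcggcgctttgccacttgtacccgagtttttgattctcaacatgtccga
NME1: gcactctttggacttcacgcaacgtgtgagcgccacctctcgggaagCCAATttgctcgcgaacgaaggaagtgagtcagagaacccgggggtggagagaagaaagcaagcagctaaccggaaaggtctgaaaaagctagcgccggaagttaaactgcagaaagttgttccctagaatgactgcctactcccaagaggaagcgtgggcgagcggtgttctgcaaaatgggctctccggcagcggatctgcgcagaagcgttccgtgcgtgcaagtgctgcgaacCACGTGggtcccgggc
HEXIM1 held a TATA box, CCAAT boxes and GC boxes, MYCN held GC boxes alone, and NME1 a CCAAT box and an E-box. Among the 3 histone windows the octamer was in HIST2H2BE alone. Of all 27305 promoters in the RefSeq table, 1.8% held the octamer, 12% TATAAA, 35.7% CCAAT, 7.43% the E-box and 44.6% the GC box. A match is a description of the letters and not evidence of binding.

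Across the transcriptome 2829 of 10851 tested genes passed the test (26.1%), of which 1167 rose (10.8%) and 1662 fell (15.3%). Large changes were mostly falls: 372 genes fell by at least 1 log2 unit (3.43%) and 100 rose by as much (0.922%). The 4 JQ1 libraries lay above all 4 DMSO libraries in 1359 genes (12.5%) and below them in 1777 (16.4%). Set against all 10 LOUCY libraries without inhibitor, DMSO and untreated, they lay above in 777 genes (7.16%) and below in 1377 (12.7%). The median change was 0.57 among genes that rose and -0.65 among genes that fell, against -0.01 over all tested genes. The counts depend on single libraries: 726 rose without JQ1 experiment 1 replicate 1, 763 and 740 without JQ1 experiment 2 replicates 1 and 2, and 739 and 734 without DMSO experiment 1 replicates 1 and 2. Without DMSO experiment 2 replicate 1, 2048 rose and 2532 fell. The counts past 1 log2 unit moved more with the scale than with a library, over 37 to 300 rises and 134 to 655 falls across pseudocounts, filters and read-based weights. A total of 185 genes that fell averaged under 1 RPKM in JQ1 libraries.

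**Figure D1:**
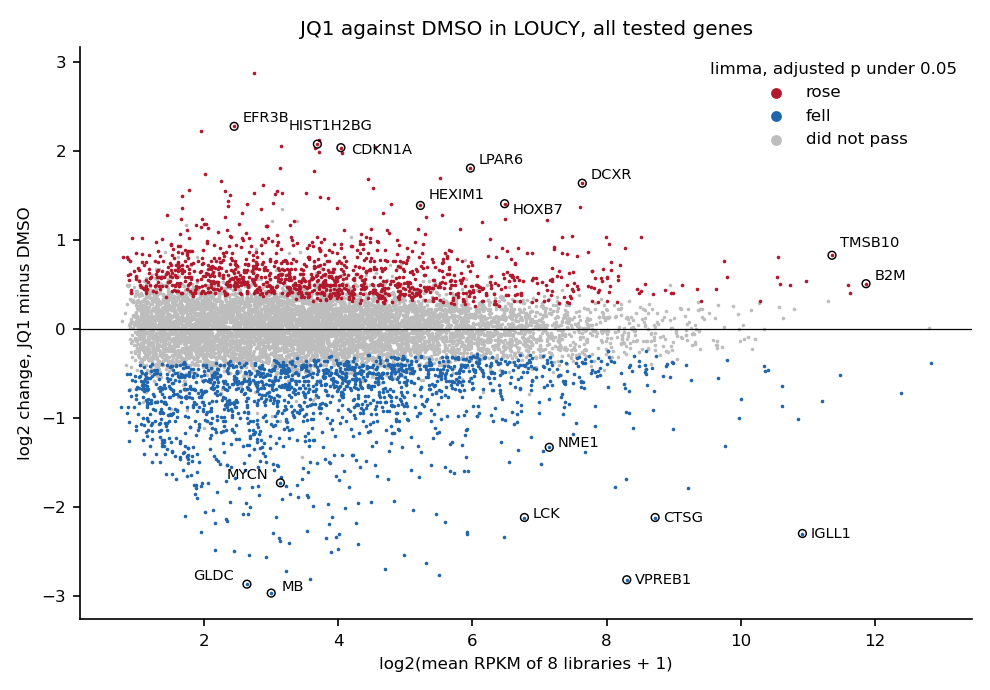
Log2 change (JQ1 minus DMSO, vertical axis) against level (log2 of the mean RPKM of the 8 libraries plus 1, horizontal axis) for 10851 tested genes. Red and blue points rose and fell by limma at an adjusted p under 0.05, grey points did not pass. The largest changes are falls, and VPREB1, IGLL1 and CTSG are both abundant and strongly lowered.

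Within the direct machinery, HEXIM1 and the BET gene BRD2 rose. HEXIM1 was at 54.0, 54.1, 55.3 and 49.2 RPKM in JQ1 libraries, against 19.9, 18, 22.8 and 18.2 RPKM in DMSO libraries (values run through experiment 1 replicates 1 and 2, then experiment 2 replicates 1 and 2, here and throughout). The groups were far apart, with a change of 1.39 (SE 0.11, limma adjusted p = 1.94e-05), 2.69-fold by the means. BRD2 averaged 12 ± 1.04 RPKM in JQ1 libraries and 6.73 ± 0.946 in DMSO libraries (SD, n = 4 each), a change of 0.76. BRD3 averaged 39.6 ± 0.648 in JQ1 and 38 ± 2.07 in DMSO and did not pass. BRDT was below the filter. Of 33 tested P-TEFb and elongation genes 5 rose (15.2%) and 4 fell (12.1%), near the shares over all genes (10.8% and 15.3%; list median 0.02), with 3 rises without JQ1 experiment 1 replicate 1, either JQ1 library of experiment 2 or DMSO experiment 1 replicate 2, and 2 falls without either JQ1 library of experiment 2 or either DMSO library of experiment 1. POLR2A, the large subunit of RNA polymerase II, rose by 0.73 and HEXIM2, the paralog of HEXIM1, fell by 0.84.

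Of 13 tested genes known from other cells to rise under BET inhibition, 12 rose (92.3%, against 10.8% of all genes). The list median was 1.35, and 11 to 12 rose with 1 library left out. The list was chosen with results of these data known, so its direction is not independent evidence. TXNIP, an inhibitor of thioredoxin and glucose uptake, was the exception, at 69.9, 72.1, 70.3 and 67.9 RPKM in JQ1 libraries, against 67.4, 68.4, 77.0 and 67.9 in DMSO libraries. SERPINI1, a neuronal protease inhibitor, was at 6.36, 6.47, 6.1 and 3.25 RPKM in JQ1 libraries, against 2.78, 2.53, 3.23 and 2.91 in DMSO libraries. Its change of 0.73 no longer passed without JQ1 experiment 1 replicate 1 (0.67), JQ1 experiment 2 replicate 1 (0.64), DMSO experiment 1 replicate 1 (0.69) or DMSO experiment 1 replicate 2 (0.65). Histone genes make up much of the list.

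Replication-dependent histone genes rose together. Their messages are made in S phase and mostly lack poly(A) tails, so an oligo-dT library sees a minority of them. Of 38 tested, 23 rose (60.5%, against 10.8% of all genes) and 0 fell (median 0.87, against -0.01 over all genes). With 1 library left out, 21 to 25 rose. By protein, 8 of 9 H2B genes, 6 of 9 H3 genes, 5 of 9 H2A genes, 3 of 4 linker H1 genes and 1 of 7 H4 genes rose. HIST1H2BD was at 23.7, 21.4, 26.4 and 30.0 RPKM in JQ1 libraries, against 6.66, 5.4, 3.81 and 7.16 in DMSO libraries, without overlap (change 1.98, SE 0.18, limma adjusted p = 4.96e-05). HIST1H1C, the linker histone H1.2, averaged 68.6 ± 4.61 RPKM in JQ1 and 20.5 ± 2.52 in DMSO libraries, 3.34-fold higher in JQ1. HIST2H2BE averaged 20.2 ± 2.35 in JQ1 and 6.61 ± 0.169 in DMSO, 3.06-fold higher in JQ1. HIST1H2BG rose by 2.08. The summed level of the list overlapped between groups (3470.3 to 5274.6 RPKM in JQ1, 2219.3 to 3615.7 in DMSO). HIST1H4C, looked up after the sums were seen, carries most of them, at 3621.8 ± 804.9 RPKM in JQ1 and 2562.7 ± 592.8 in DMSO, and rose by 0.5.

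Histone genes share near-identical copies, and the sources used here do not say how reads with several matches were handled, so single histone values are uncertain. A RefSeq window was matched for 32 of the 38 genes (84.2%). CCAAT was in 28 of these windows (87.5%), TATAAA in 22 (68.8%) and the octamer in 13 (40.6%), against 38.4%, 5.48% and 1.3% of the windows of tested genes, which were matched for 80.6% of them. Genes with and without the octamer rose: 9 of 13 with it and 10 of 19 without it rose, with the HIST2H2BE, HIST1H2BD and HIST1H1C windows above as examples of both kinds.

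**Figure D2:**
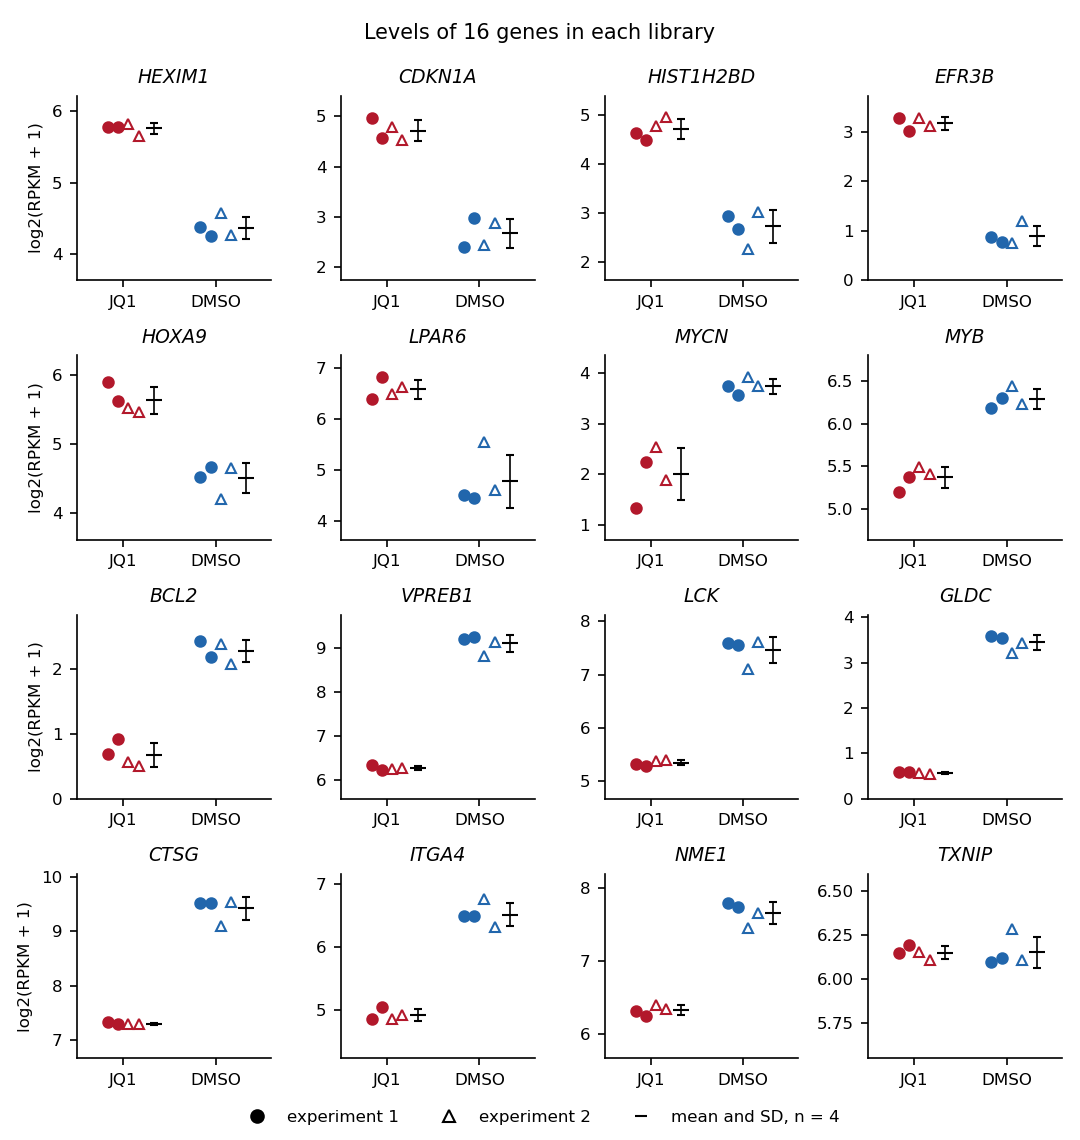
Levels of 16 genes as log2(RPKM + 1) in each library, JQ1 left and DMSO right in each panel, with its own vertical scale. Circles are experiment 1, triangles experiment 2, and the bar gives the mean and SD of 4 libraries. The groups separate fully in every panel except TXNIP, but the genes were picked from those named, in part for groups that do not overlap. Over all tested genes the 4 JQ1 libraries lay above all 4 DMSO libraries in 12.5% and below them in 16.4%.

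The largest rises outside the histones were in genes of varied function. EFR3B, which anchors a lipid kinase at the plasma membrane, was at 8.71, 7.11, 8.66 and 7.65 RPKM in JQ1 libraries, against 0.824, 0.702, 0.68 and 1.28 in DMSO libraries. That change of 2.28 (SE 0.14, limma adjusted p = 4.5e-06) was the largest rise on the log2(RPKM + 1) scale among genes the naming rule covers. The small RNA gene SNORD3A, outside the rule, averaged 10.8 ± 2.36 RPKM in JQ1 and 0.631 ± 0.435 in DMSO. DHRS2, a mitochondrial reductase, averaged 5.36 ± 1.18 in JQ1 and 0.342 ± 0.0879 in DMSO, a larger ratio of means than that of EFR3B. ELOVL4, which elongates very long chain fatty acids, was at 13.8, 14.9, 13.7 and 11 RPKM in JQ1 libraries, against 2.01, 1.77, 3.02 and 3.11 in DMSO libraries. SERTAD1, a cofactor of CDK4 and E2F, averaged 36.5 ± 2.94 in JQ1 and 8.29 ± 2.65 in DMSO. EFR3B, DHRS2, ELOVL4 and SERTAD1 all lay above the 10 libraries without inhibitor, as did 7.16% of all tested genes. Naming by size required that JQ1 and DMSO libraries not overlap, which fixes this in part.

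LPAR6, a receptor for lysophosphatidic acid, was at 82.7, 112.5, 89.0 and 97.8 RPKM in JQ1 libraries, against 21.7, 21.0, 45.6 and 23.3 in DMSO libraries, with DMSO experiment 2 replicate 1 the highest of the DMSO group and still below every JQ1 library. SMIM14 (20.3 ± 1.6 in JQ1, 3.94 ± 1.07 in DMSO), a small membrane protein, and CCSAP (12.5 ± 0.765 in JQ1, 2.94 ± 1.04 in DMSO), a spindle-associated protein, rose by 2.13 and 1.81. RNU12, the RNA of the minor spliceosome, averaged 19.0 ± 6.36 in JQ1 and 4.2 ± 2.53 in DMSO and is uncertain as a small RNA in an oligo-dT library. Among genes of at least 100 RPKM the large rises included DCXR, a carbonyl reductase of sugar metabolism (299.1 ± 32.8 in JQ1, 97.3 ± 22.4 in DMSO), HOXB7 (128.7 ± 4.69 in JQ1, 47.9 ± 3.45 in DMSO), GRN, encoding the lysosomal protein progranulin (279.6 ± 20.5 in JQ1, 109.2 ± 21.6 in DMSO), and CIRBP, a cold-inducible RNA-binding protein (124.3 ± 12.1 in JQ1, 52.5 ± 8.33 in DMSO). Groups that do not overlap were a condition for naming these high genes.

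Of 12 tested leukaemia genes known elsewhere to fall under BET inhibition, 6 fell, against 15.3% of all genes (median -0.32). With 1 library left out, 4 to 7 fell. Another 2 rose (16.7%, against 10.8% of all genes), and only 1 rose in 6 of the 8 fits that left out 1 library. This list too was chosen with results of these data known, so its direction is not independent evidence. MYCN, the MYC-family factor these cells use, was at 1.54, 3.73, 4.79 and 2.69 RPKM in JQ1 libraries, against 12.3, 10.8, 14.1 and 12.3 in DMSO libraries. Every JQ1 library lay below every DMSO library (change -1.73, SE 0.21, limma adjusted p = 0.000268), and within experiments the change was -1.85 and -1.62. MYC itself was below the filter, at 0.0 to 0.455 RPKM in JQ1 and 0.0 to 0.164 in DMSO libraries, and was not tested. BCL2, which blocks apoptosis, was at 0.617, 0.899, 0.479 and 0.423 RPKM in JQ1 libraries, against 4.39, 3.51, 4.21 and 3.22 in DMSO libraries, 6.34-fold lower in JQ1. MYB, a progenitor transcription factor, averaged 40.4 ± 3.53 in JQ1 and 77.6 ± 6.27 in DMSO, and CCND2, a D-type cyclin, 6.64 ± 0.849 in JQ1 and 11.8 ± 2.48 in DMSO.

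CDK6, the kinase partner of D-type cyclins, fell by 0.36 and RUNX1, a core haematopoietic factor, fell by 0.36. CDK6 did not pass without JQ1 experiment 1 replicate 1 (-0.31), JQ1 experiment 2 replicate 1 (-0.36), DMSO experiment 1 replicate 1 (-0.35) or DMSO experiment 1 replicate 2 (-0.35). RUNX1 did not pass without those 4 (-0.34, -0.34, -0.37 and -0.35) or without JQ1 experiment 2 replicate 2 (-0.37). The 2 rises were PIM1, a survival kinase, at 31.0, 25.7, 25.3 and 27.0 RPKM in JQ1 libraries, against 17.2, 13.8, 8.15 and 13.6 in DMSO libraries, and E2F2 (11 ± 1.93 in JQ1, 8.12 ± 1.93 in DMSO), whose groups overlapped and which no longer passed in 6 of the 8 fits that left out 1 library (0.4 to 0.44), those without DMSO of experiment 2 being the exceptions. IL7R and KIT were below the filter.

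Around MYCN, repressors of the MYC network moved in both directions. MXD1, which pairs with MAX to repress MYC targets, was at 7.48, 7.49, 6.75 and 7.98 RPKM in JQ1 libraries, against 2.41, 2.49, 2.84 and 2.0 in DMSO libraries (change 1.30, SE 0.12, limma adjusted p = 7.15e-05). MXD3 rose by 0.95 and MXI1, another repressor, fell by 0.46; the fall of MXI1 did not pass without DMSO experiment 1 replicate 1 (-0.44). MAX, their shared partner, averaged 43.7 ± 2.38 in JQ1 and 48.3 ± 5.85 in DMSO and did not pass. The network's 10 tested genes gave 3 rises (30.0%, against 10.8% of all genes) and 3 falls (30.0%, against 15.3%). The rise of MXD4 and the fall of MGA each did not pass in 6 of the 8 fits that left out 1 library. Only 1 fall passed without DMSO experiment 1 replicate 1.

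Nucleolar and growth genes, many of them MYC targets in other cells, fell in 24 of 50 (48.0%) and rose in 0 (median -0.34). Over all tested genes 15.3% fell and 10.8% rose. Without DMSO experiment 2 replicate 1, 37 fell, and the other 7 fits that left out a library gave at least 18. NME1, which makes nucleoside triphosphates, was at 78.8, 74.9, 83.6 and 80.0 RPKM in JQ1 libraries, against 220.9, 213.3, 173.8 and 200.2 in DMSO libraries. This was the list's largest fall (change -1.33, SE 0.1, limma adjusted p = 1.62e-05). LYAR, a factor of ribosome biogenesis, averaged 31.9 ± 3.22 in JQ1 and 64.2 ± 10.2 in DMSO, and RRS1, which acts on the large ribosomal subunit, 8.51 ± 2.24 in JQ1 and 20.5 ± 1.45 in DMSO. The E-box CACGTG shown in the NME1 window was in 16 of the 43 windows matched for this list (37.2%, with 86.0% matched). It was in 10.7% of the windows of tested genes and 10.1% of those of mitochondrial ribosomal proteins (90.8% matched). Among all tested genes, it was in 11.9% of the windows of genes that rose and 11.7% of those that fell (79.3% and 79.5% matched).

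Mitochondrial ribosomal proteins, which build the ribosome inside mitochondria, fell in 30 of 76 (39.5%, against 15.3% of all genes) and rose in 1 (1.32%, against 10.8%). The list median was -0.31. Falls numbered 21 to 45 when 1 library was left out, the 45 without DMSO experiment 2 replicate 1. The count of rises was 4 without that library, 2 without DMSO experiment 2 replicate 2, and 0 without JQ1 experiment 1 replicate 1 or 2, JQ1 experiment 2 replicate 1 or either DMSO library of experiment 1. MRPS15 averaged 36.3 ± 2.84 RPKM in JQ1 and 80.9 ± 10.2 in DMSO, and MRPL3 108.9 ± 6.24 in JQ1 and 214.2 ± 37.7 in DMSO. Chaperones fell in 17 of 37 (45.9%, against 15.3% of all genes) and rose in 0 (median -0.32). With 1 library left out 11 to 21 fell, the 11 without JQ1 experiment 2 replicate 1 and without JQ1 experiment 2 replicate 2. HSPB1, a small heat shock protein, was at 42.5, 39.2, 56.2 and 54.5 RPKM in JQ1 libraries, against 138.6, 134.0, 106.4 and 170.1 in DMSO libraries. The co-chaperone FKBP4 fell by 0.95 and HSPA5, the chaperone of the endoplasmic reticulum, by 0.52.

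Progenitor transcription factors and receptors fell in 9 of 12 (75.0%, against 15.3% of all genes) and rose in 0 (median -0.72). With 1 library left out, 8 to 10 fell. GFI1B, a repressor of stem and erythroid-megakaryocyte cells, was at 17.3, 18.9, 20.9 and 20.2 RPKM in JQ1 libraries, against 104.9, 104.2, 73.7 and 117.4 in DMSO libraries, 5.18-fold lower in JQ1. LYL1, a helix-loop-helix factor that marks this leukaemia type, averaged 3.07 ± 0.729 in JQ1 and 7.51 ± 1.68 in DMSO. HHEX, a homeobox factor of early progenitors, averaged 74.1 ± 10.8 in JQ1 and 113.5 ± 16.6 in DMSO. LMO2, the adaptor that joins LYL1 complexes, averaged 3.73 ± 1.55 in JQ1 and 3.43 ± 0.92 in DMSO and did not pass, nor did ERG (17.1 ± 1.5 in JQ1, 20.9 ± 0.616 in DMSO). CD34, KIT and MEF2C were below the filter.

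HOX genes rose in part. In the HOXA cluster, whose late genes are active in LOUCY, 5 of 15 rose (33.3%, against 10.8% of all genes). A single gene fell (6.67%, against 15.3%). The cluster's median was 0.26, and 4 to 6 rose with 1 library left out. The fall, of the noncoding RNA HOTTIP (-0.54), did not pass in 5 of the 8 such fits. HOXA9 was at 58.9, 48.4, 45.1 and 43.3 RPKM in JQ1 libraries, against 22.0, 24.3, 17.3 and 24.2 in DMSO libraries (change 1.12, SE 0.12, limma adjusted p = 0.00017). HOXA5 averaged 52.1 ± 3.56 in JQ1 and 30.1 ± 5.88 in DMSO, and HOXA3 6.42 ± 0.69 in JQ1 and 3.7 ± 0.467 in DMSO. HOXA10 rose by 0.31 but did not pass in 6 of the 8 fits that left out 1 library (0.3 to 0.33), those without DMSO of experiment 2 being the exceptions. After HOXB7 had been named for its size, its neighbours were looked up with their values known: HOXB6 (54.2 ± 7.33 in JQ1, 22.7 ± 6.54 in DMSO), HOXB9 (14 ± 1.73 in JQ1, 7.67 ± 0.973 in DMSO), HOXB3 and HOXB5 also rose, while HOXB2 (-0.34), HOXB4 (0.32) and HOXB8 (0.27) did not pass.

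T-cell receptor genes fell broadly, with 26 falls (72.2%, against 15.3% of all genes) and 1 rise (2.78%, against 10.8%) of 36 tested. The list median was -0.7, with 22 to 28 falls when 1 library was left out. LCK, the kinase that starts receptor signalling, was at 38.9, 38.2, 40.7 and 41.0 RPKM in JQ1 libraries, against 191.5, 187.7, 136.9 and 193.3 in DMSO libraries, 4.47-fold lower in JQ1 (change -2.12, SE 0.12, limma adjusted p = 3.59e-06). The 4 JQ1 values lay within 3 RPKM of each other, and the lowest DMSO value was that of experiment 2 replicate 1. TRAT1, an adaptor that stabilises the receptor, was at 5.74, 4.3, 4.4 and 6.23 RPKM in JQ1 libraries, against 28.0, 29.4, 36.2 and 34.0 in DMSO libraries. UBASH3B, a phosphatase that limits signalling, averaged 15.8 ± 0.379 in JQ1 and 49.7 ± 2.01 in DMSO. CD3E, a chain of the receptor, averaged 112.2 ± 4.81 in JQ1 and 170.2 ± 14.4 in DMSO. The exception was THEMIS, a regulator of thymocyte selection, at 11.8, 13.7, 8.49 and 9.23 RPKM in JQ1 libraries, against 3.91, 2.96, 4.74 and 2.21 in DMSO libraries. CD7, an early T-cell surface protein, averaged 62.1 ± 2.43 in JQ1 and 76.9 ± 21.5 in DMSO and did not pass.

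T-lineage transcription factors fell in 12 of 23 (52.2%, against 15.3% of all genes) and rose in 0 (median -0.35). Falls numbered 7 without JQ1 experiment 2 replicate 2. IKZF1 (Ikaros) was at 4.14, 4.55, 4.58 and 4.04 RPKM in JQ1 libraries, against 9.68, 10.1, 11.1 and 10.2 in DMSO libraries. GATA3, which commits cells to the T lineage, was at 20.5, 17.8, 28.3 and 28.0 RPKM in JQ1 libraries, against 50.6, 45.7, 42.1 and 49.0 in DMSO libraries. ETS1 fell by 0.94 and RUNX3 by 0.58, and BCL11B did not pass (3.44 ± 0.528 in JQ1, 3.99 ± 0.75 in DMSO). Of the genes of cortical thymocytes, the stage that JURKAT resembles, CD1A averaged 0.578 ± 0.345 in JQ1 and 5.49 ± 0.707 in DMSO, and SH2D1A, an adaptor of SLAM receptors, 67.8 ± 4.36 in JQ1 and 132.7 ± 8.28 in DMSO. With LCK and RAG2, 4 of 5 tested genes of that list fell (80.0%, against 15.3% of all genes).

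The SLAM receptor CD244 was at 4.62, 7.45, 7.02 and 4.95 RPKM in JQ1 libraries, against 44.9, 44.5, 39.4 and 47.0 in DMSO libraries, 7.31-fold lower in JQ1. Receptors that guide migration fell in 8 of 15 (53.3%, against 15.3% of all genes). The 1 rise (6.67%, against 10.8%) was LPAR6, and the list median was -0.8. CCR7, which homes cells to lymph nodes, averaged 7.07 ± 1.37 in JQ1 and 26.7 ± 4.76 in DMSO, and CXCR3 0.571 ± 0.189 in JQ1 and 6.34 ± 2.14 in DMSO. Integrins and adhesion molecules fell in 16 of 26 (61.5%, against 15.3% of all genes) and rose in 0 (median -0.48). With 1 library left out, 11 to 17 fell. ITGA4, the alpha chain of VLA-4, averaged 29.3 ± 1.93 in JQ1 and 91.1 ± 12.2 in DMSO. None of these genes overlapped between groups, which naming by size or smallest adjusted p largely fixes.

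**Figure D3:**
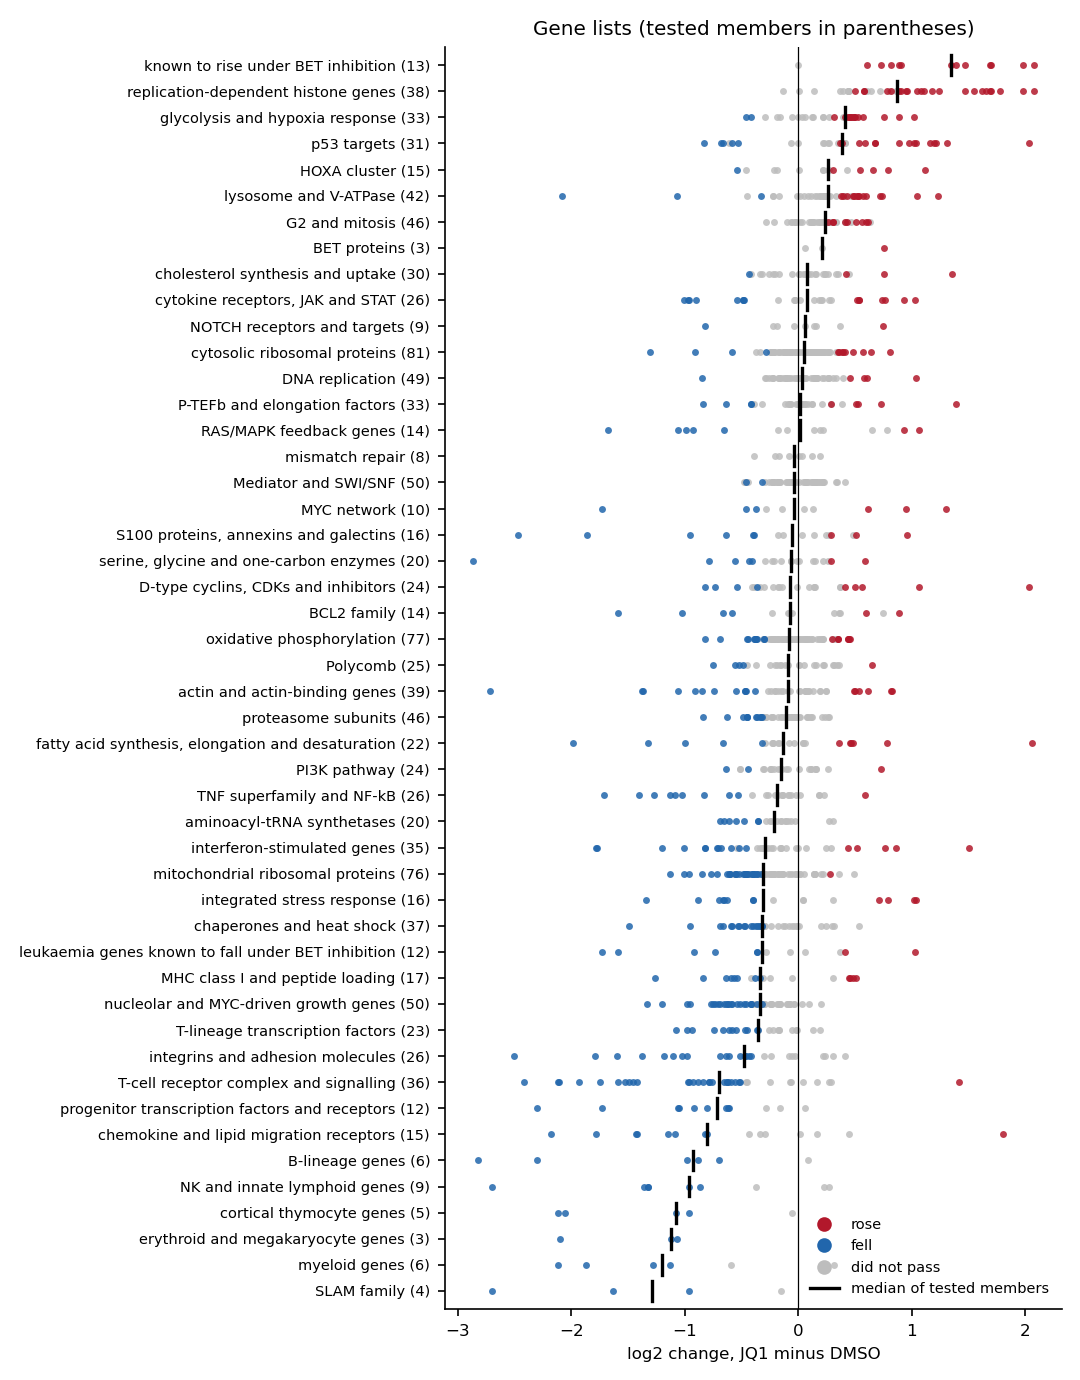
Log2 change (JQ1 minus DMSO) of each tested member of the gene lists with at least 3 tested members, lists ordered by median. Red rose, blue fell, grey did not pass, and the black bar is the list median. Histone genes and genes known to rise lie at the top; SLAM, myeloid, erythroid, cortical thymocyte, NK and B-lineage genes lie at the bottom.

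Genes of other blood lineages, which LOUCY carries beside its T-cell genes, also fell. VPREB1 and IGLL1 encode parts of the pre-B-cell receptor that stand in for a light chain. VPREB1 was at 80.5, 74.4, 75.8 and 76.2 RPKM in JQ1 libraries, against 591.2, 607.0, 448.3 and 563.1 in DMSO libraries, 7.2-fold lower in JQ1 (change -2.82, SE 0.1, limma adjusted p = 6.81e-07). IGLL1 averaged 647.6 ± 77.8 in JQ1 and 3229.6 ± 654.4 in DMSO, with some uncertainty from near-identical copies. Of 18 listed B-lineage genes 15 were found in the table, 6 were tested and 5 fell (83.3% of those tested, against 15.3% of all genes). The list's summed level was 947.8 to 1186.3 RPKM in JQ1 and 3109.5 to 4965.5 in DMSO libraries. IGLL1 made up most of that sum, at 571.2 to 717.6 in JQ1 and 2271.7 to 3715.2 in DMSO. The tested gene that did not pass was EBF1, a defining B-cell factor, at 21.7 to 24.2 RPKM in JQ1 and 20.5 to 21.8 in DMSO. The B-cell genes PAX5 (0.0857 to 0.25 RPKM in JQ1, 0.0228 to 0.15 in DMSO) and MS4A1 (0.104 to 0.36 in JQ1, 0.312 to 0.917 in DMSO) were near 0 in both groups.

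CTSG, the granule protease cathepsin G, was at 159.5, 156.1, 155.7 and 154.8 RPKM in JQ1 libraries, against 728.7, 734.0, 544.6 and 744.4 in DMSO libraries, 4.4-fold lower in JQ1. LYZ (lysozyme) averaged 3.95 ± 0.698 in JQ1 and 17.1 ± 2.63 in DMSO. Of 26 listed myeloid genes 14 were found in the table, 6 were tested and 4 fell (66.7% of those tested, against 15.3% of all genes). Their summed level was 170.6 to 173.6 RPKM in JQ1 and 584.5 to 788.1 in DMSO, most of it CTSG. The myeloid genes CEBPA (0.0 to 0.0709 in JQ1, 0.113 to 0.284 in DMSO) and ITGAM (0.162 to 0.287 in JQ1, 0.409 to 0.475 in DMSO) were near 0. Of 19 listed NK and innate lymphoid genes 11 were found in the table, 9 were tested and 6 fell (66.7%, against 15.3% of all genes). The list's summed level was 517.1 to 654.8 RPKM in JQ1 and 1254.3 to 1769.1 in DMSO. GZMA, a granzyme that made up most of this sum, was at 425.2, 476.6, 549.4 and 502.1 RPKM in JQ1 libraries, against 993.5, 998.7, 1580.3 and 1402.9 in DMSO libraries. NCAM1 was under 1 RPKM in all 8.

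Of 18 listed erythroid and megakaryocyte genes 6 were found in the table, 3 were tested and 3 fell (summed level 286.9 to 377.9 in JQ1, 579.0 to 911.9 in DMSO). TFRC, the transferrin receptor, made up nearly all of this sum and averaged 318.0 ± 41.5 in JQ1 and 697.8 ± 144.5 in DMSO. HBD (delta globin) was at 0.0, 0.0, 0.0 and 1.11 RPKM in JQ1 libraries, against 2.65, 4.51, 4.82 and 5.07 in DMSO libraries. EPOR, the erythropoietin receptor, overlapped between groups, and its change of -1.07 did not pass without JQ1 experiment 1 replicate 1 (-1.03), DMSO experiment 1 replicate 1 (-1.0) or DMSO experiment 1 replicate 2 (-0.87). PECAM1 (CD31), shared by endothelial and blood cells, averaged 3.42 ± 0.437 in JQ1 and 24.1 ± 1.96 in DMSO; the other 10 of the 11 non-haematopoietic genes found in the table (14 listed), among them VWF, ALB and CDH1, were under 1 RPKM in all 8 libraries. None of the markers found in the table was at 0 in all 8 libraries; the other listed markers were not analysed here, and the table holds no gene above 0 in fewer than 4 libraries. Whether the share of cells carrying these lineage genes differed between groups was not tested.

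Other large falls lay outside the lists or were the largest fall of a list. GLDC, the glycine cleavage enzyme, was at 0.511, 0.504, 0.49 and 0.452 RPKM in JQ1 libraries, against 11, 10.6, 8.34 and 9.81 in DMSO libraries, 20.3-fold lower in JQ1. It was the extreme of its list of serine, glycine and one-carbon enzymes. Of 20 tested, 5 fell (25.0%, against 15.3% of all genes) and 2 rose (10.0%, near the 10.8% of all genes). The list median was -0.06. With 1 library left out, 4 to 7 fell and 0 to 1 rose. MB (myoglobin) was at 0.14, 0.415, 1.61 and 1.4 RPKM in JQ1 libraries, against 10.8, 12.8, 12.5 and 16.1 in DMSO libraries. This was the largest fall of all on the log2(RPKM + 1) scale (-2.97, SE 0.18, limma adjusted p = 4.13e-06). By the ratio of group means GLDC fell further than MB. HPGDS, which makes prostaglandin D, was at 1.45, 1.55, 2.66 and 2.0 RPKM in JQ1 libraries, against 14.5, 15.1, 30.5 and 19.9 in DMSO libraries. NOG (noggin), a secreted inhibitor of BMP signals, averaged 8.48 ± 2.98 in JQ1 and 52.9 ± 12.6 in DMSO. ACTG2 (smooth-muscle actin), KCNMB1 (a potassium channel subunit), SPINK4 (a protease inhibitor), HSH2D (an SH2 adaptor), CST7 (cystatin F) and the noncoding RNA LINC00539 fell by 2.72, 2.54, 2.56, 2.63, 2.34 and 2.77.

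Among D-type cyclins, CDKs and their inhibitors 5 rose and 4 fell of 24 (median -0.07), and 8 rose and 8 fell without DMSO experiment 2 replicate 1. The 5 and 4 are 20.8% and 16.7%, against 10.8% and 15.3% of all genes. CDKN1A (p21) was at 30.4, 22.6, 26.7 and 21.9 RPKM in JQ1 libraries, against 4.27, 6.84, 4.41 and 6.37 in DMSO libraries, 4.64-fold higher in JQ1 (change 2.04, SE 0.17, limma adjusted p = 2.79e-05). CDKN2D (p19) averaged 51.5 ± 2.2 in JQ1 and 24.6 ± 6.26 in DMSO, and CDKN2C (p18) 77.1 ± 2.89 in JQ1 and 54.3 ± 3.96 in DMSO. CDKN1B (p27) did not pass (3.15 ± 1.13 in JQ1, 4.46 ± 1.47 in DMSO), nor did CCND3 (47.9 ± 5.12 in JQ1, 64.2 ± 13.7 in DMSO). Of 49 DNA replication genes 4 rose (8.16%, against 10.8% of all genes) and 1 fell (2.04%, against 15.3%). The list median was 0.03, and 10 rose and 7 fell without DMSO experiment 2 replicate 1. TK1 (thymidine kinase) rose by 1.04 and POLE2, a DNA polymerase subunit, fell by 0.85. Of 46 genes of G2 and mitosis 9 rose (19.6%, against 10.8% of all genes) and 0 fell (median 0.24). Without DMSO experiment 2 replicate 1, 27 rose, and 2 to 5 rose in 6 of the other fits that left out 1 library. PTTG1 (securin) averaged 171.6 ± 16.7 in JQ1 and 116.9 ± 17.2 in DMSO.

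Genes that p53 drives in other cells rose in 15 of 31 (48.4%) and fell in 5 (16.1%, near the 15.3% of all genes). Their median was 0.39, and 12 to 20 rose with 1 library left out. Falls numbered 3 without JQ1 experiment 1 replicate 1, either JQ1 library of experiment 2 or either DMSO library of experiment 1. SESN1 (sestrin) was at 36.1, 37.4, 34.5 and 32.9 RPKM in JQ1 libraries, against 14, 12.3, 15.5 and 12.6 in DMSO libraries. BTG2, an antiproliferative factor, averaged 97.7 ± 12.1 in JQ1 and 42.1 ± 5.02 in DMSO. The falls included PMAIP1 (NOXA), a BH3-only killer protein, at 137.5, 140.5, 175.6 and 171.2 RPKM in JQ1 libraries, against 228.9, 225.0, 281.7 and 249.6 in DMSO libraries, and the nuclease gene AEN (8.08 ± 0.51 in JQ1, 13.6 ± 2.08 in DMSO). In the BCL2 family, the BH3-only genes BMF (3.27 ± 0.385 in JQ1, 1.31 ± 0.279 in DMSO) and BCL2L11, encoding BIM (4.34 ± 0.434 in JQ1, 2.53 ± 0.344 in DMSO), rose, and BIK fell by 1.02 beside BCL2 and PMAIP1. MCL1 averaged 30.8 ± 2.95 in JQ1 and 23.9 ± 3.53 in DMSO and did not pass (change 0.36, adjusted p = 0.0552). Across the family's 14 tested genes 2 rose (14.3%, against 10.8% of all genes) and 4 fell (28.6%, against 15.3%), and 4 rose without DMSO experiment 2 replicate 1.

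Signalling genes moved both ways. In the RAS/MAPK feedback list 5 of 14 fell (35.7%, against 15.3% of all genes) and 2 rose (14.3%, against 10.8%). Each of the 8 fits without 1 library gave 5 falls. ETV5, an ETS factor induced by the pathway, was at 1.47, 1.54, 2.09 and 1.37 RPKM in JQ1 libraries, against 7.44, 8.27, 6.91 and 6.74 in DMSO libraries. SPRY1 and DUSP6, which dampen the pathway, fell by 1.06 and 0.93, and FOS and JUND, subunits of AP-1, rose by 1.07 and 0.93. Among 26 cytokine receptors, JAKs and STATs 7 rose (26.9%, against 10.8% of all genes) and 8 fell (30.8%, against 15.3%). Falls numbered 5 without either DMSO library of experiment 1. STAT5A was at 30.9, 28.6, 29.7 and 28.5 RPKM in JQ1 libraries, against 61.1, 67.5, 47.3 and 67.6 in DMSO libraries, and STAT5B averaged 11.7 ± 0.575 in JQ1 and 23.9 ± 1.7 in DMSO. Their fall stood beside rises of STAT2 by 0.77 and of the STAT5 target PIM2 by 0.93. JAK3 (24.2 ± 0.807 in JQ1, 21.2 ± 3.43 in DMSO), NOTCH1 (2.41 ± 0.233 in JQ1, 1.66 ± 0.447 in DMSO) and HES1 (10.9 ± 2.69 in JQ1, 9.67 ± 2.06 in DMSO) did not pass.

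Interferon-stimulated genes fell in 12 of 35 and rose in 5 (median -0.29), and MHC class I and peptide-loading genes fell in 8 of 17 and rose in 4. The falls were 34.3% and 47.1%, against 15.3% of all genes, and the rises 14.3% and 23.5%, against 10.8%. Interferon-stimulated rises numbered 3 in each fit that left out 1 library except those without JQ1 experiment 1 replicate 1 or DMSO experiment 2 replicate 1, and MHC rises numbered 2 without JQ1 experiment 1 replicate 1, either JQ1 library of experiment 2 or DMSO experiment 1 replicate 2. IRF7, a master factor of the interferon response, was at 7.14, 5.79, 6.85 and 7.0 RPKM in JQ1 libraries, against 1.82, 1.95, 1.22 and 1.83 in DMSO libraries. TRIM22 (3.23 ± 0.688 in JQ1, 13.4 ± 1.84 in DMSO) and GBP1 (1.97 ± 0.607 in JQ1, 9.12 ± 1.74 in DMSO), both antiviral effectors, fell. NLRC5, which switches on MHC class I genes, averaged 5.65 ± 0.346 in JQ1 and 15.1 ± 2.35 in DMSO, while B2M, the light chain of class I, averaged 4396.1 ± 250.4 in JQ1 and 3090.7 ± 136.5 in DMSO. PSMB8, a subunit of the immunoproteasome, fell by 0.84. Galectin 9 (LGALS9), an immune checkpoint ligand, was at 2.76, 3.7, 5.4 and 3.78 RPKM in JQ1 libraries, against 29.1, 31.2, 18.7 and 25.5 in DMSO libraries.

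Lysosomal genes rose in 14 of 42 (33.3%, against 10.8% of all genes) and fell in 3 (7.14%, against 15.3%). The list median was 0.26, with 10 to 17 rises when 1 library was left out. MAP1LC3B, which coats autophagosomes, was at 198.0, 204.9, 188.7 and 178.5 RPKM in JQ1 libraries, against 74.8, 80.9, 102.2 and 70.7 in DMSO libraries. PSAP (prosaposin) averaged 240.2 ± 13.8 in JQ1 and 116.4 ± 16.3 in DMSO, and NPC2, which carries cholesterol, 366.2 ± 22.7 in JQ1 and 221.7 ± 6.2 in DMSO. Cathepsin genes moved both ways: CTSB rose by 0.57, and CTSH was at 18.2, 15.5, 13.9 and 16.1 RPKM in JQ1 libraries, against 68.1, 74.2, 68.5 and 70.4 in DMSO libraries, and CTSS fell by 1.07. Glycolysis and hypoxia genes rose in 14 of 33 (42.4%, against 10.8% of all genes) and fell in 2 (6.06%, against 15.3%). The list median was 0.41, and 1 fell without DMSO experiment 1 replicate 1 and 4 without DMSO experiment 2 replicate 1. Only 5 to 8 rose without JQ1 experiment 1 replicate 1 (6), JQ1 experiment 2 replicate 1 (5), JQ1 experiment 2 replicate 2 (7), DMSO experiment 1 replicate 1 (6) or DMSO experiment 1 replicate 2 (8). NDRG1, a hypoxia-induced gene, averaged 6.93 ± 0.177 in JQ1 and 2.94 ± 0.609 in DMSO, and PFKFB3, which speeds glycolysis, 13.8 ± 0.687 in JQ1 and 8.95 ± 0.589 in DMSO.

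In the integrated stress response 4 genes rose and 8 fell of 16, with 5 falls without JQ1 experiment 2 replicate 2 or DMSO experiment 1 replicate 2. DDIT4 (REDD1), an inhibitor of mTORC1, was at 354.2, 339.5, 333.8 and 345.4 RPKM in JQ1 libraries, against 164.0, 168.8, 152.1 and 179.9 in DMSO libraries, and TRIB3, a pseudokinase of the same response, averaged 3.56 ± 1.14 in JQ1 and 10.3 ± 1.67 in DMSO. Fatty acid genes rose in 6 of 22 (27.3%, against 10.8% of all genes) and fell in 5 (22.7%, against 15.3%). A total of 3 rose without JQ1 experiment 2 replicate 1, and 8 fell without DMSO experiment 2 replicate 1. Beside ELOVL4, the acyl-CoA synthetase ACSL1 rose by 0.78, while ACSL5 (3.94 ± 0.612 in JQ1, 18.6 ± 1.6 in DMSO), ACSL6 and ELOVL6 fell. TM7SF2, a sterol reductase of cholesterol synthesis, rose (21.6 ± 1.88 in JQ1, 7.92 ± 1.75 in DMSO). Actin genes rose in 6 of 39 (15.4%, against 10.8% of all genes) and fell in 12 (30.8%, against 15.3%). Thymosin TMSB10 averaged 3362.3 ± 263.5 in JQ1 and 1903.4 ± 297.5 in DMSO, and vimentin (VIM) rose by 0.82. Tropomyosin TPM4 (112.7 ± 7.24 in JQ1, 294.8 ± 27.4 in DMSO) and calponin CNN2 (72.4 ± 3.72 in JQ1, 191.4 ± 34.0 in DMSO) fell. SLC38A5, an amino acid carrier, averaged 3.67 ± 1.02 in JQ1 and 22.6 ± 4.52 in DMSO.

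A larger share fell among genes that untreated LOUCY carries above untreated JURKAT. The classes rest on the untreated libraries, which the comparison did not use, with limits chosen after the values were seen. Of 236 genes at least 3 log2 units higher in LOUCY, 142 fell (60.2%) and 16 rose (6.78%), with a median change of -0.63. Of 1251 genes higher by 1 to 3 units, 433 fell (34.6%), and of 8493 within 1 unit 928 fell (10.9%) and 913 rose (10.8%). Of 871 genes lower in LOUCY by at least 1 unit, 159 fell (18.3%). No test was made over genes, which are not replicates.

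**Figure D4:**
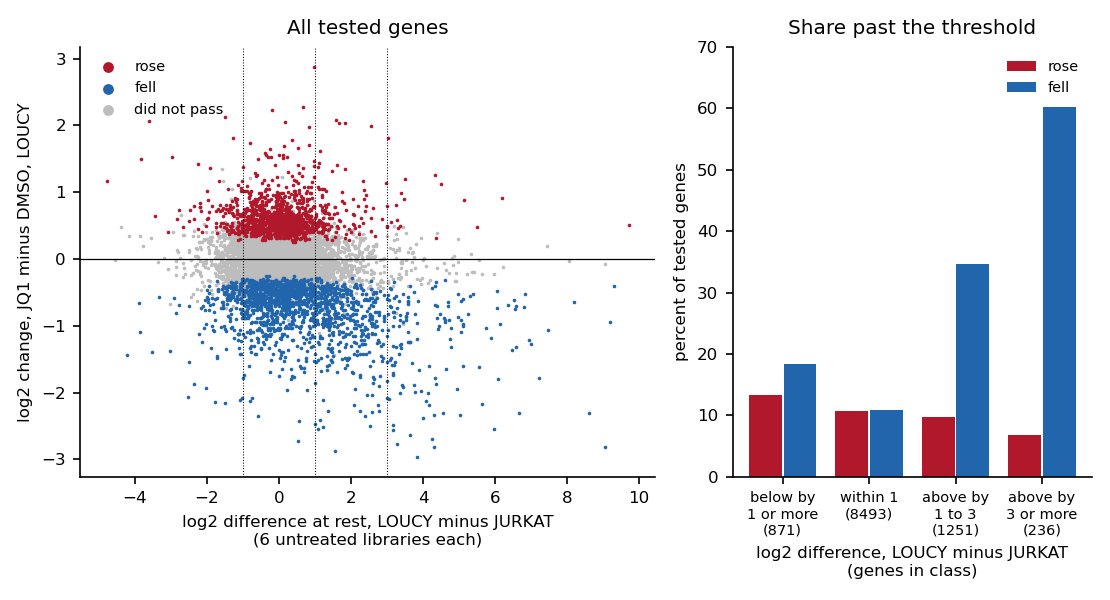
Left, log2 change under JQ1 in LOUCY (vertical axis) against the log2 difference between untreated LOUCY and untreated JURKAT (horizontal axis, 6 libraries each) for all tested genes; dotted lines are the class limits. Right, percent of genes that rose (red) or fell (blue) in each class; falls reach 60.2% in the class highest in LOUCY.

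The experiments were also fitted apart. The 2829 genes that passed had the same sign in both experiments, which the call over both largely fixes. Across all tested genes, which are not independent replicates, the changes had a Pearson r of 0.762. Alone, experiment 1 gave 1193 rises (11%) and 1667 falls (15.4%), and experiment 2, which holds the library with the steep GC slope, 158 rises (1.46%) and 376 falls (3.47%). The change itself differed between experiments in 2 genes of 10851 (0.0184%; 351 at an unadjusted p under 0.05), SNORD78 and SNORD27, small nucleolar RNAs that the naming rule leaves out and that are named after their values were seen. SNORD27 had 4, 4, 2 and 4 reads in JQ1 libraries, against 0, 0, 9 and 7 in DMSO libraries, so the difference of -4.67 (experiment 2 minus experiment 1, limma adjusted p = 0.00756) rests on few reads. The count of such genes was 0 without JQ1 or DMSO experiment 1 replicate 2, and 1296 without DMSO experiment 2 replicate 2, which leaves the library with the steep GC slope as the only DMSO library of its experiment.

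**Figure D5:**
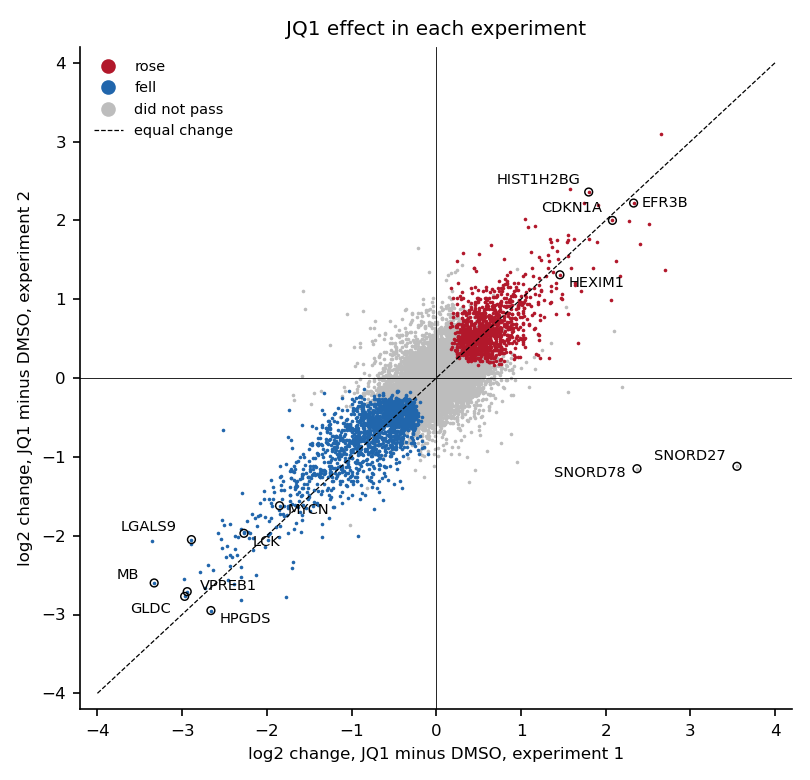
Log2 change (JQ1 minus DMSO) in experiment 2 (vertical axis) against experiment 1 (horizontal axis) for all tested genes, 2 against 2 libraries each; colours give the call over both experiments and the dashed line equal change. Called genes lie along the line, and SNORD27 and SNORD78 lie off it with opposite signs.

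I-BET151, another BET inhibitor of a different chemical scaffold, was given at 500 nM, so doses differ and no matched-dose comparison is possible. Against DMSO, I-BET151 gave 963 rises (8.7%) and 1447 falls (13.1%) of 11075 genes tested over 12 libraries. I-BET151 experiment 2 replicate 1 had a GC slope of -0.335 against its group mean, steeper than the -0.298 of DMSO experiment 2 replicate 1. Its part in these counts was not tested. Both inhibitors share the DMSO libraries, and their changes are set side by side without a measure of agreement. HEXIM1 averaged 53.1 ± 2.72 RPKM in JQ1, 50.8 ± 7.05 in I-BET151 and 19.7 ± 2.21 in DMSO libraries. MYCN averaged 3.19 ± 1.39 in JQ1, 3.97 ± 0.433 in I-BET151 and 12.4 ± 1.37 in DMSO. The changes against DMSO were -2.82 under JQ1 and -2.90 under I-BET151 for VPREB1, and 1.98 and 1.44 for HIST1H2BD. Of the same 11075 genes, 1 was higher in JQ1 than in I-BET151 (0.00903%) and 0 were lower by limma, with 451 at an unadjusted p under 0.05. The 1 gene, SNORD23, named after its value was seen, had 1 to 2 reads per JQ1 library and 0 in the 4 I-BET151 libraries. HIST1H1C, at 68.6 ± 4.61 in JQ1 and 44.8 ± 4.33 in I-BET151, and POLR2A, at 122.4 ± 14 in JQ1 and 93.0 ± 18.7 in I-BET151, did not pass for this difference; a p that misses the threshold does not show that the inhibitors act alike.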

How the data were processed

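RNA-seq libraries (Smart-seq2, Nextera XT, per the labels' protocols) were aligned with STAR 2.5.1b to hg38 and counted with featureCounts of Subread 1.4.5-p1, and edgeR 3.10.5 was used, per the submitters' processing notes; the sources used here do not give their settings. The authors deposited RPKM for 15862 genes in 24 libraries, and this was the unit analysed. RPKM steps gave whole reads for 100% of genes within 0.01 reads, from which the depths come. The protocol does not mark strand, so overlapping antisense genes cannot be told apart.

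The main test was limma 3.58.1 in R 4.3.3 on log2(RPKM + 1) over 8 libraries, with experiment as covariate, trended empirical Bayes, a filter of 1 RPKM in at least 4 libraries and Benjamini-Hochberg adjustment over all 10851 tested genes. The 8 libraries fixed the comparison; I-BET151 and untreated libraries entered only where stated. The script was tested on simulated data. Tables and figures used Python 3.11.15, numpy 2.4.6, pandas 2.3.3 and matplotlib 3.10.9. Alternatives were other pseudocounts, filters, scalings, a GC correction, the experiments alone, a replicate block, each library left out and, chosen after seeing the data, voom on recovered reads.

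Genes were named by rule: the 12 largest called rises and falls whose sign held in each experiment, whose groups did not overlap and whose higher group reached 5 RPKM; the 6 largest each way at 100 RPKM or more; a panel; and up to 3 each way per list by smallest adjusted p. Small RNA and clone features were left out of the rule. Members and lists were chosen with earlier results of these data known. Promoters came from the RefSeq table of GRCh38.p14. Some items withheld for evaluation are not reported here.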

Additional observations from a re-analysis of the deposited data

Results flagged for a closer look

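In groups of 4 libraries, a value was looked at again where its gap to the nearest other, over the group's range, passed Dixon's critical value. That held in 30 of 286 groups over the genes named (10.5%), where chance gives about 1 in 20. DMSO experiment 2 replicate 1, the library with the GC slope of -0.298, held 14 of them; the part of GC content in these values was not tested.

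JQ1 experiment 1 replicate 1 lay above its group's other libraries in BRD2 (13.6 RPKM, others 11.4 to 11.6), CCND3 (55.5 RPKM, others 44.6 to 46.2), TK1 (251.3 RPKM, others 200.5 to 208.6). JQ1 experiment 1 replicate 1 lay below its group's other libraries in SMIM14 (17.9 RPKM, others 21.0 to 21.3), CCSAP (11.4 RPKM, others 12.8 to 13). JQ1 experiment 1 replicate 2 lay above its group's other libraries in TPM4 (123.5 RPKM, others 107.9 to 109.9). JQ1 experiment 2 replicate 1 lay above its group's other libraries in B2M (4768.7 RPKM, others 4249.2 to 4316.6). JQ1 experiment 2 replicate 2 lay above its group's other libraries in HOXA10 (66.6 RPKM, others 63.1 to 63.4), HEXIM2 (3.67 RPKM, others 2.27 to 2.49), HBD (1.11 RPKM, others 0.0 to 0.0). JQ1 experiment 2 replicate 2 lay below its group's other libraries in SERPINI1 (3.25 RPKM, others 6.1 to 6.47). DMSO experiment 1 replicate 1 lay above its group's other libraries in SERTAD1 (12.2 RPKM, others 6.56 to 7.28). DMSO experiment 2 replicate 1 lay above its group's other libraries in CCSAP (4.49 RPKM, others 2.26 to 2.61), LPAR6 (45.6 RPKM, others 21.0 to 23.3), MCL1 (29.2 RPKM, others 21.9 to 22.6), TXNIP (77.0 RPKM, others 67.4 to 68.4), TPM4 (335.9 RPKM, others 279.5 to 282.9), MRPL3 (270.6 RPKM, others 193.2 to 198.9). DMSO experiment 2 replicate 1 lay below its group's other libraries in CIRBP (40.1 RPKM, others 55.3 to 57.5), CST7 (120.6 RPKM, others 153.1 to 159.4), LCK (136.9 RPKM, others 187.7 to 193.3), CTSG (544.6 RPKM, others 728.7 to 744.4), BRD2 (5.31 RPKM, others 7.15 to 7.28), JAK3 (16.1 RPKM, others 22.3 to 23.5), AEN (10.5 RPKM, others 14.4 to 15.0), CNN2 (140.7 RPKM, others 204.0 to 211.9). DMSO experiment 2 replicate 2 lay above its group's other libraries in VIM (153.2 RPKM, others 129.4 to 130.3). DMSO experiment 2 replicate 2 lay below its group's other libraries in BCL2L11 (2.01 RPKM, others 2.64 to 2.75), CDK6 (84.8 RPKM, others 103.5 to 107.2), UBASH3B (46.7 RPKM, others 50.5 to 51.0).

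The JQ1 effect differed between experiments by limma in 2 small nucleolar RNA genes: SNORD78 by -3.51 and SNORD27 by -4.67 (log2, experiment 2 minus experiment 1, adjusted p = 0.00756 for each). SNORD78 had 19 reads over the 4 JQ1 libraries and 18 over the 4 DMSO libraries, and SNORD27 14 and 16.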

How the results depend on the processing

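Among 226 named genes past the threshold, 0 changed direction under the 25 alternatives, and 121 passed under all of them. Rises numbered 1167: 158 in experiment 2 alone, 2108 with the GC trend removed and 726 to 2048 with 1 library left out (726 without JQ1 experiment 1 replicate 1, 763 and 740 without JQ1 experiment 2 replicates 1 and 2, 739 and 734 without DMSO experiment 1 replicates 1 and 2, 2048 without DMSO experiment 2 replicate 1). Falls numbered 1662: 376 in experiment 2 alone and 1178 to 2532 with 1 library left out, the highest without DMSO experiment 2 replicate 1. Rises of at least 1 log2 unit numbered 100: 202 and 37 with pseudocounts of 0.1 and 5, 217 with voom on recovered reads and 300 with voom and no filter. Falls of that size numbered 372: 134 with a pseudocount of 5, 244 with a filter of 5 RPKM and 655 with voom and no filter. Of the calls 41.3% were rises, against 49.2% with quantile scaling and 48.1% with the GC trend removed. Differences between experiments numbered 2: 0 without JQ1 or DMSO experiment 1 replicate 2, and 1296 without DMSO experiment 2 replicate 2. JQ1 and I-BET151 differed in 1 gene: 0 in the fit of 18 LOUCY libraries, 2 with the replicate block, and 0 to 2 with 1 library left out. Replicate numbers did not pair the libraries (correlations of 0.185, -0.188, -0.203 and -0.003), and the replicate block gave 919 rises and 1413 falls. The cause of these shifts was not tested. The planned edgeR and DESeq2 alternatives were not run; voom was run on the recovered reads in their place. Depth limits genes under 1 RPKM, where few reads stand behind a value.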
